A study of Mus musculus with 4 samples.

Results

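The genes described here are 10 feedback inhibitors and transcriptional outputs of the ERK mitogen-activated protein kinase pathway: the phosphatase genes Dusp4, Dusp5 and Dusp6, the Sprouty genes Spry1, Spry2 and Spry4, the Spred genes Spred1 and Spred2, and the ETS factor genes Etv4 and Etv5. They were taken by name, as every probe set that the array's platform annotation assigns to one of these genes alone, which gave 28 of the 45101 probe sets on the array. All 10 genes were measured, among 18193 genes with a probe set of their own. Expression was compared between NSCL61-sox11 (2 arrays) and NSCL61 (2 arrays). NSCL61 is a line of neural stem cells from the brain of C57BL/6 mouse embryos at day 14.5 that the labels call p53-/- and liken to glioma-initiating cells. NSCL61-sox11 shares that background and also expresses sox11, and the design text states that it no longer formed tumours in vivo. The labels do not say what drives sox11, it is 1 line, and whether the arrays of either line stem from independent cultures is not given. The spread behind each p-value is thus that between arrays and may be purely technical. Both lines were described as grown as floating spheres in serum-free medium with PDGF at 10 ng/ml, bFGF and forskolin at 5 μM. PDGF and bFGF both signal through receptors that feed into ERK.

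Growth factor receptors activate Ras and a kinase cascade that ends in ERK, which enters the nucleus and switches on genes. Several of those genes encode inhibitors of the same cascade. Dual-specificity phosphatases remove the activating phosphates from ERK, Sprouty proteins act between receptor and Raf, and Spred proteins bring the Ras inhibitor neurofibromin to the membrane. Etv4 and Etv5 are ETS transcription factors of the PEA3 family that are commonly read as outputs of FGF signalling. The question here is which of these genes differ between the lines.

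On the deposited scale, which was read as log2, 5 of the 10 genes fell in NSCL61-sox11, 1 rose and 4 did not pass the test. Dusp4, Dusp5, Spry4, Spred2 and Etv5 fell, and Spry1 rose. Spry2, Spred1, Etv4 and Dusp6 did not pass. Each gene is represented by its brightest tested probe set, and a call is an adjusted p under 0.05 (limma, Benjamini-Hochberg over the 27022 probe sets with the highest mean). The background is 19.2% of all 13084 genes called, 9.19% lower and 10.0% higher. The median difference of the 10 genes was -0.51, against -0.02 over all genes tested, and 8 of the 10 differences lay below 0, as did 53.3% of all genes. On the deposited scale 1308 of all genes rose and 1202 fell, against 303 and 1051 with arrays scaled to the poly-A controls and 702 and 2336 with the hybridisation controls. Without NSCL61 array 1 the calls were Dusp4, Etv5 and Spry1, and without NSCL61 array 2 they were Dusp4, Dusp5 and Spry1, while the share of all genes called was 6.93% and 7.2%. In bulk RNA, fewer cells of a type and less RNA per cell cannot be told apart.

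**Figure D1:**
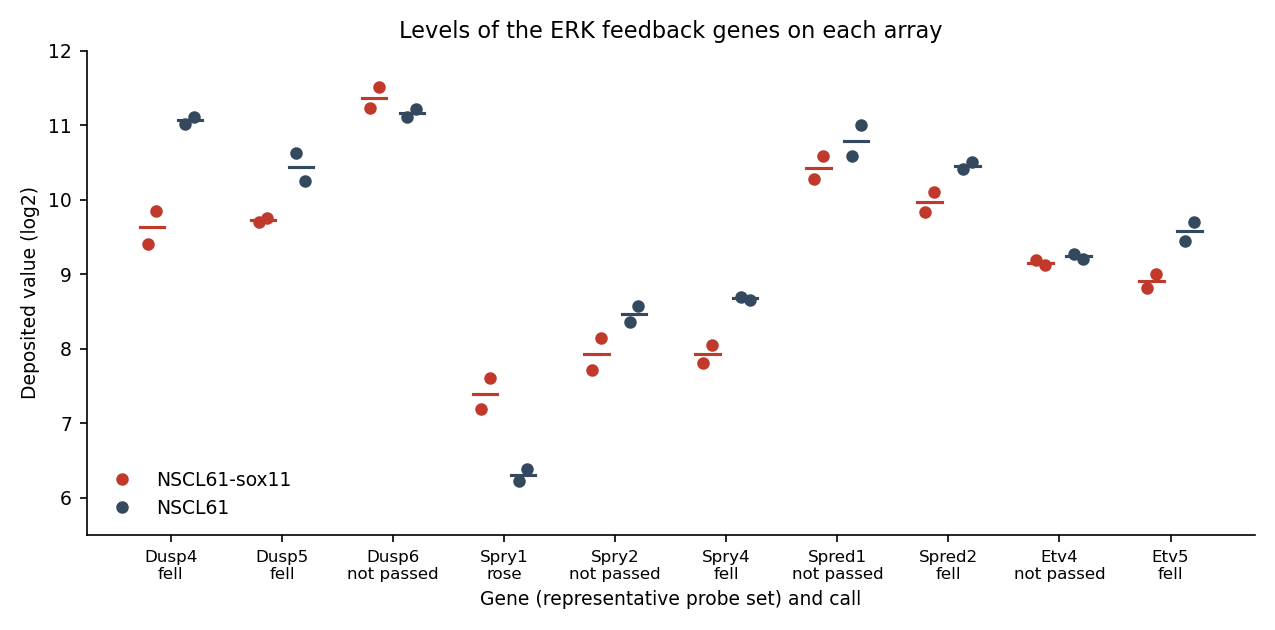
Deposited value (log2) of the representative probe set of each of the 10 genes on each array, NSCL61-sox11 left and NSCL61 right, with dots for arrays and bars for the mean of 2 arrays. The widest gap between lines is that of Dusp4, and Spry1 is the gene that lies clearly higher in NSCL61-sox11, at 7.19 and 7.60 against 6.23 and 6.38.

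The arrays themselves were checked first. Pearson's r across the 27022 probe sets, which are not independent, was 0.994 within NSCL61-sox11 and 0.995 within NSCL61, and 0.968 to 0.972 between the lines. All 6 probe sets for Sox11 gave higher values in NSCL61-sox11. The brightest had 7.74 and 7.97 in NSCL61-sox11, against 5.09 and 4.82 in NSCL61, whose values lie below the lowest mean tested, 5.15, so no size is given for this difference. Among markers of neural stem and progenitor cells, 6 of 10 were tested, 3 fell and none rose. The intermediate filament gene Nes stood at 9.44 in NSCL61-sox11 and 9.39 in NSCL61, while Sox2 stood at 8.83 and 10.52. Fabp7, Prom1 and Olig2 lay below that level in both lines. Markers of fibroblasts and meninges moved with the lines: 4 of 5 tested rose, with mean levels of 8.33 and 9.01 on the NSCL61-sox11 arrays and 6.32 and 6.97 on the NSCL61 arrays. Of these 4, Postn lost its call without NSCL61 array 1 (limma adjusted p = 0.13) or array 2 (limma adjusted p = 0.071), and Col1a2 with poly-A scaling (limma adjusted p = 0.13). Of these 6 markers, Lum lay below the level filter in both lines, at 3.80 in NSCL61-sox11 and 3.996 in NSCL61. Of 6 neuron markers 3 were tested and 1 rose, Tubb3, at 7.55 and 7.45 in NSCL61-sox11 against 5.76 and 6.25 in NSCL61 (limma adjusted p = 0.0029), while Snap25, Dcx and Map2 lay below the level filter. None of the tested markers of astrocytes, oligodendrocytes, microglia and blood cells, or endothelial cells passed in limma, where Gfap and Cdh5 had an unadjusted p under 0.05. The part of any of these markers in the differences below was not tested.

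Of the 3 phosphatase genes, Dusp4 fell most, Dusp5 fell and Dusp6 did not pass. Each has 1 probe set. Dusp4 encodes a nuclear phosphatase that acts on ERK and other MAP kinases. Its values were 9.41 and 9.85 on the NSCL61-sox11 arrays and 11.02 and 11.12 on the NSCL61 arrays. The lines did not overlap, and both NSCL61-sox11 arrays lay more than a log2 unit below either NSCL61 array. The log2 fold change was -1.44 (SE 0.14, 95% interval -1.79 to -1.09, limma adjusted p = 0.0019), so NSCL61-sox11 held 36.8% of the NSCL61 level. It was called with each array left out, at values between -1.66 and -1.22, and under all 15 alternatives tried. Its fall ranked 312 by size among the 13084 genes.

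Dusp5 encodes a nuclear phosphatase specific for ERK. It had 9.70 and 9.76 in NSCL61-sox11, against 10.62 and 10.25 in NSCL61. The NSCL61-sox11 arrays were close together and the NSCL61 arrays further apart, by 0.38, without overlap. The log2 fold change was -0.71 (SE 0.13, limma adjusted p = 0.015), or 61.3% of the NSCL61 level. Without NSCL61 array 1 it was -0.52 and the call was lost (limma adjusted p = 0.077).

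Dusp6 encodes the cytoplasmic ERK phosphatase, a standard readout of FGF signalling. It had 11.23 and 11.51 in NSCL61-sox11 and 11.11 and 11.22 in NSCL61. All 4 values are close, and the lower NSCL61-sox11 array lies just above the higher NSCL61 array. The difference was 0.20 (SE 0.10, 95% interval -0.05 to 0.45, limma adjusted p = 0.24). The interval holds a rise of 0.45 as well as no change, so it does not show equal levels. It lies above the whole interval of Dusp4, whose upper bound was -1.09, although the difference between these genes was not tested. Without NSCL61-sox11 array 1 Dusp6 was 0.34 higher and passed (limma adjusted p = 0.025). With arrays scaled to the poly-A or the hybridisation control probe sets the sign turned, to -0.20 and -0.015.

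The promoters of Dusp5 and Dusp6 are shown because these ERK phosphatase genes differed in their calls. The windows run from 250 bases before to 50 after the transcription start, from RefSeq on GRCm38.p6, and read 5′ to 3′ on the gene's strand. The Dusp5 window lies at chr19:53528895-53529194 (plus strand) and the Dusp6 window at chr10:99262981-99263280 (plus strand). Capitals mark matches to any of 5 motifs.
Dusp5: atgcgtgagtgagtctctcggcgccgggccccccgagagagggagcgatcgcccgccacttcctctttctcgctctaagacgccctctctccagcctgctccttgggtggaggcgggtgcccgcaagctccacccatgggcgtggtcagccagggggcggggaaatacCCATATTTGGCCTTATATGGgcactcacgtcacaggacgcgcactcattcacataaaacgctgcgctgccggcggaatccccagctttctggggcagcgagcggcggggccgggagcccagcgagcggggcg
Dusp6: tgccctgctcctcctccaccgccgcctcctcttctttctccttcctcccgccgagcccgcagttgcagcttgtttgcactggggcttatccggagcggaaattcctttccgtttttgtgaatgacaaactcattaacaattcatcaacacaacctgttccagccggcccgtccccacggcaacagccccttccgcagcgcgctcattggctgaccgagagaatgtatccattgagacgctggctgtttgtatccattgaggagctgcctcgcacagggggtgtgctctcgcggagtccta
The motifs searched on both strands were ETS (CCGGAAG), AP-1 (TGANTCA), the cyclic AMP response element (TGACGTCA), the CArG box of serum response elements, and Sox (ACAAAG). Dusp5 held a pair of adjacent CArG boxes, CCATATTTGG and CCTTATATGG, which begin at -82 and -72 from the start and do not overlap. CArG boxes occur in 1.63% of the 32851 promoter windows of the same length. The Dusp6 window held none of the 5 motifs, which says only that these letters are not in it.

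**Figure D2:**
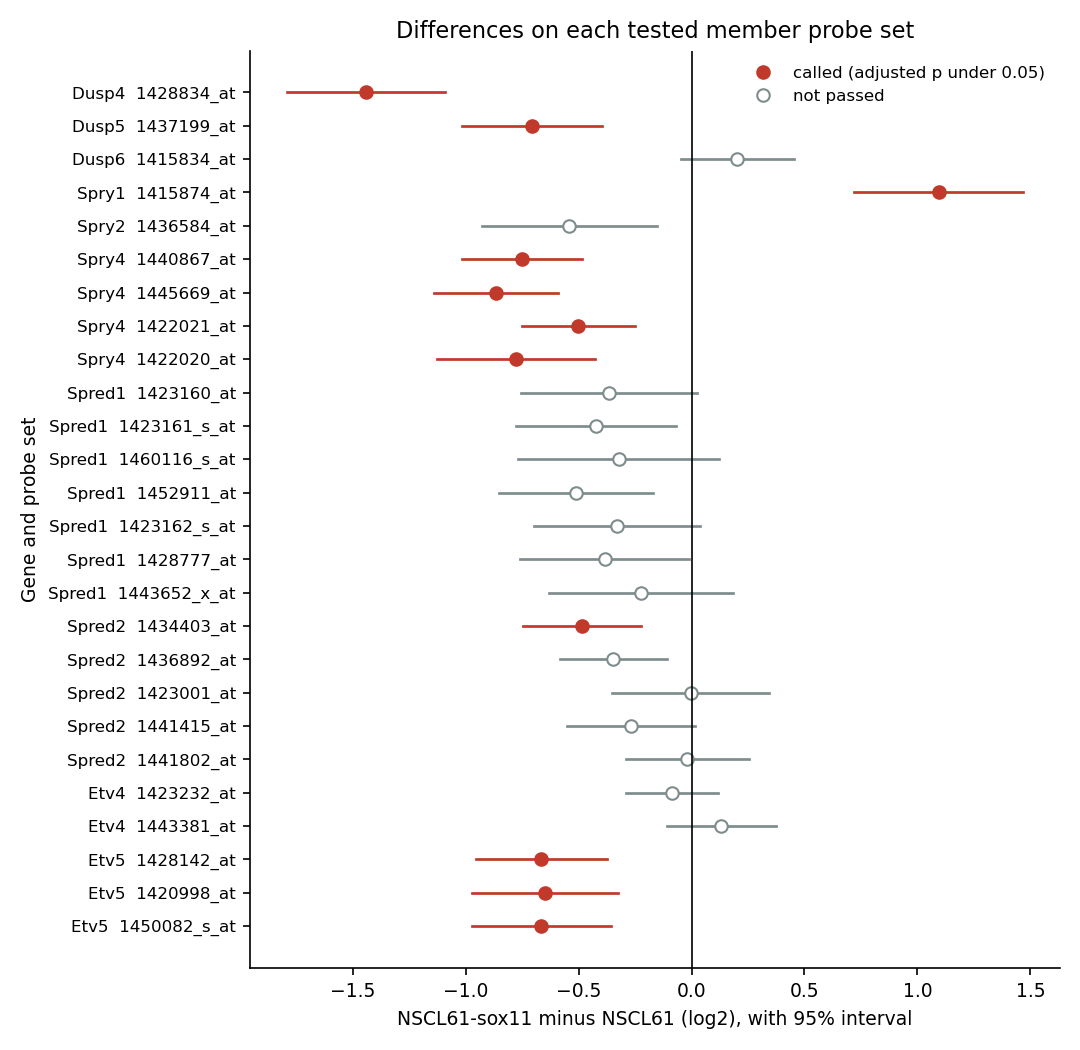
Difference between NSCL61-sox11 and NSCL61 (log2) on each of the 26 tested probe sets, with the unadjusted 95% interval from limma. Filled points passed at an adjusted p under 0.05: 10 lie below 0, among them all 4 of Spry4 and all 3 of Etv5, and 1, for Spry1, lies above 0.

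The Sprouty genes moved in opposite directions: Spry1 rose and Spry4 fell, while Spry2 did not pass. Spry1 has 1 probe set. It had 7.19 and 7.60 in NSCL61-sox11, against 6.23 and 6.38 in NSCL61. Both NSCL61-sox11 arrays lay above both NSCL61 arrays. The log2 fold change was 1.09 (SE 0.15, 95% interval 0.72 to 1.47, limma adjusted p = 0.0064), or 213% of the NSCL61 level. Spry1 and Dusp4 were the 2 of the 10 genes that passed with a change of at least 2-fold, as 4.48% of all genes did. The rise held with each array left out, between 0.89 and 1.3, but with arrays scaled to the poly-A controls, which shifts every difference by -0.40, it was 0.69 and did not pass (limma adjusted p = 0.13).

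Spry4 was measured by 4 probe sets, and each of them fell. On the brightest it had 7.81 and 8.05 in NSCL61-sox11, against 8.69 and 8.66 in NSCL61. The lines did not overlap on any of the 4, and the NSCL61 arrays lay within 0.04 of each other on the brightest. The log2 fold change was -0.75 (SE 0.11, 95% interval -1.01 to -0.48, limma adjusted p = 0.0072), or 59.5% of the NSCL61 level. The other probe sets gave -0.87, -0.78 and -0.50. Probe sets of a gene share the same RNA, so they repeat the measurement and not the sample. The call on the brightest was lost without NSCL61 array 1 (limma adjusted p = 0.061) or array 2 (limma adjusted p = 0.054), with values of -0.73 and -0.77.

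Spry2, which encodes a Sprouty protein that binds the ubiquitin ligase Cbl, had 7.71 and 8.14 in NSCL61-sox11 and 8.36 and 8.58 in NSCL61. Both NSCL61-sox11 arrays were lower, without overlap, but they differed from each other by 0.42. The difference was -0.54 (SE 0.16, limma adjusted p = 0.067) and did not pass. It passed without NSCL61-sox11 array 2, at -0.75 (limma adjusted p = 0.0088), and with arrays scaled to the poly-A or the hybridisation controls, at -0.95 and -0.76. The second Spry2 probe set lay below the level filter, with means of 5.01 in NSCL61-sox11 and 5.24 in NSCL61.

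The promoters of Spry1 and Spry2 are shown because Spry1 was the member that rose and Spry2 is its paralog. The Spry1 window lies at chr3:37639697-37639996 (plus strand) and the Spry2 window at chr14:105896770-105897069 (minus strand), both on GRCm38.p6 from RefSeq, with the same 5 motifs in capitals.
Spry1: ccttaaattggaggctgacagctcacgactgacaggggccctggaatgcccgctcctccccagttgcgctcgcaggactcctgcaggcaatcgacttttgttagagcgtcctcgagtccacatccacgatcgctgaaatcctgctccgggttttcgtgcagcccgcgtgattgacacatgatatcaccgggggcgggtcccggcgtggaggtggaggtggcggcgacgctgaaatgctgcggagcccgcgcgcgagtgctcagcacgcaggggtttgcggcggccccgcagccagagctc
Spry2: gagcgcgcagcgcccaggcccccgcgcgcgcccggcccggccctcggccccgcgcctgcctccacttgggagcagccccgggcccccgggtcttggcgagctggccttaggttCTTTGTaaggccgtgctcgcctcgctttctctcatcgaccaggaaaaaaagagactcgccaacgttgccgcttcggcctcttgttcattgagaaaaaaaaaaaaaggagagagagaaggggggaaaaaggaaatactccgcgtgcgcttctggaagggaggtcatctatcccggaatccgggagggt
The Spry1 window held none of the 5 motifs. The Spry2 window held the Sox letters on the opposite strand, beginning at -137 from the start. The same letters were found in Spred2, at -161, and in the second of the Etv5 windows, at -3. Of the 10 genes, 7 had a window in the table, 8 windows in all, and 3 of the 8 held the Sox letters, against 18.7% of all windows. None of the 8 held the ETS, AP-1 or cyclic AMP letters, which occur in 8.86%, 7.81% and 1.79% of all windows. Dusp4, Spry4 and Etv4 had no window and are not in these counts.

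The Spred genes lay lower in NSCL61-sox11, and 1 of them passed. Spred2 had 9.84 and 10.11 in NSCL61-sox11, against 10.41 and 10.51 in NSCL61, on the brightest of its 5 probe sets. The lines did not overlap there, and the log2 fold change was -0.49 (SE 0.11, limma adjusted p = 0.028), or 71.4% of the NSCL61 level. The other 4 probe sets did not pass, at differences of -0.35, -0.27, -0.019 and -0.0039, and the probe set at -0.35 had an adjusted p of 0.059 with limma. The mean of the 5 gave -0.22 (limma adjusted p = 0.18). The call was also lost without NSCL61 array 1 (limma adjusted p = 0.12) or array 2 (limma adjusted p = 0.18), at values of -0.53 and -0.44.

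Spred1 had the most probe sets, 8, of which 7 were tested and none passed. On the brightest the values were 10.27 and 10.58 in NSCL61-sox11 and 10.58 and 11.002 in NSCL61. Here the lines overlapped, since the higher NSCL61-sox11 array equalled the lower NSCL61 array to 2 decimals. The difference was -0.36 (SE 0.16, 95% interval -0.75 to 0.02, limma adjusted p = 0.18), and it passed with hybridisation control scaling, at -0.58 (limma adjusted p = 0.0055). All 7 tested probe sets gave a difference below 0, between -0.51 and -0.22, and on all 7 NSCL61 array 2 was higher than NSCL61 array 1, by 0.20 to 0.44. On the brightest, the gap between the NSCL61 arrays, 0.42, was wider than the difference between the lines. The smallest adjusted p among them was 0.056 with limma, on a probe set with 7.94 and 8.02 in NSCL61-sox11 and 8.30 and 8.69 in NSCL61. The eighth probe set lay near 3.4 in both lines, below the level filter, at 3.42 in NSCL61-sox11 and 3.49 in NSCL61.

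The PEA3 factors differed in their calls. Etv5 fell on all 3 of its probe sets. On the brightest it had 8.81 and 9.01 in NSCL61-sox11, against 9.45 and 9.70 in NSCL61. The lines were apart on each of the 3, and the values were nearly the same: -0.66 (SE 0.12, limma adjusted p = 0.014), -0.65 and -0.66, or 63.1% of the NSCL61 level on the brightest. The call was lost without NSCL61 array 2, at -0.54 (limma adjusted p = 0.11).

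Etv4 had 9.19 and 9.12 in NSCL61-sox11 and 9.28 and 9.21 in NSCL61 on its brighter probe set. The 4 values span less than 0.2 log2 units. The difference was -0.08 (SE 0.08, 95% interval -0.29 to 0.12, limma adjusted p = 0.55), and the dimmer probe set, near the level filter, gave 0.13 (limma adjusted p = 0.43). The interval of Etv4 lies above that of Etv5, which was -0.95 to -0.37, although the difference between these genes was not tested.

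Over all 26 tested probe sets, 10 fell, 1 rose and 15 did not pass, where 17.3% of the 27022 probe sets were called, 8.32% lower and 8.99% higher. On 18 of the 26 both NSCL61-sox11 arrays lay below both NSCL61 arrays, which was so for 32.4% of all probe sets. On 3 they lay above, as for 28.1% of all probe sets. By gene, 7 were below without overlap and 2 above, where 32.9% and 29.3% of all genes were. The order of the gene differences, lowest to highest, was Dusp4, Spry4, Dusp5, Etv5, Spry2, Spred2, Spred1, Etv4, Dusp6 and Spry1. From Spry4 to Spred1 each value lies within the interval of its neighbour, so neighbours are not ordered beyond their error. At the ends of these 6, Spred1 at -0.36 lies above the interval of Spry4, -1.01 to -0.48. Differences between genes were not tested.

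**Figure D3:**
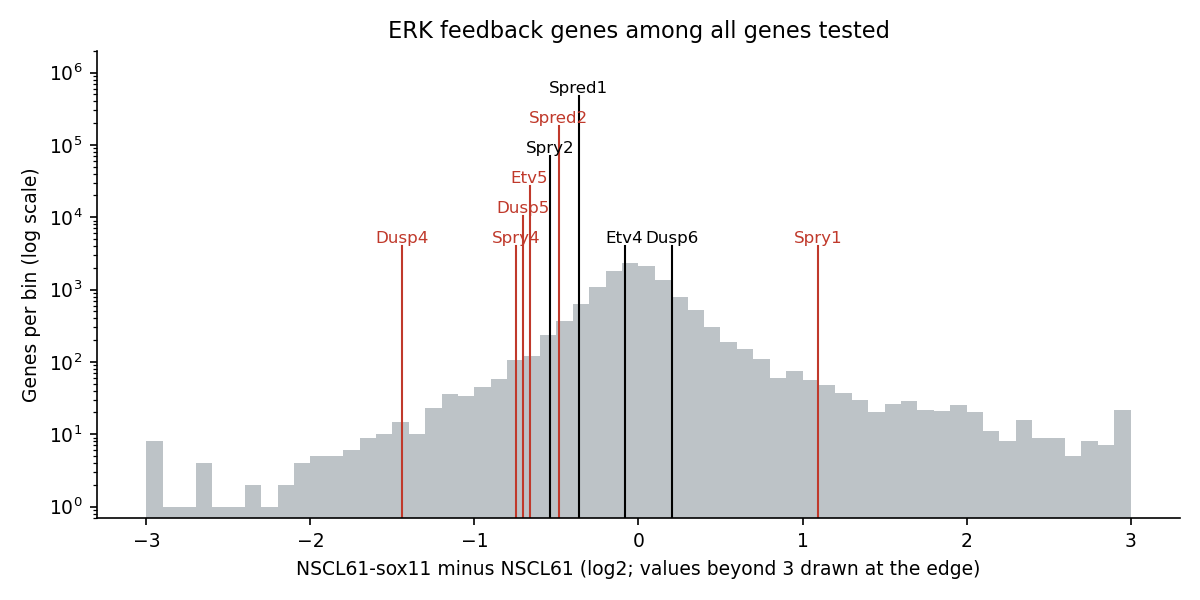
Number of genes (log scale) by difference between NSCL61-sox11 and NSCL61 (log2) for all 13084 genes, with a line for each of the 10 members, red where called and black where not. From Spry4 at -0.75 to Spred1 at -0.36 the 6 members sit left of the peak, with Dusp4 further out at -1.44 and Spry1 on the other side at 1.09.

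The 5 genes outside the set whose values over the 4 arrays moved most like Dusp4 were Wnt7b, Itga7, Ccnd2, Mapk10 and Shroom2. Likeness was the Euclidean distance between deviations from each gene's own mean, from 0.059 for Wnt7b to 0.14 for Shroom2. Wnt7b, a Wnt ligand gene, fell to 8.93 and 9.43 in NSCL61-sox11, against 10.56 and 10.62 in NSCL61. Ccnd2, a D-type cyclin gene, fell to 8.71 and 9.31 in NSCL61-sox11, against 10.44 and 10.53 in NSCL61. With 4 arrays in 2 lines this measure mostly matches the size of the difference between the lines.

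The rest of the pathway was read from lists of known components, in order from receptor to output. Of 14 tested genes for FGF, PDGF and EGF receptors and their ligands, 5 rose, 2 fell and 7 did not pass, with a median difference of 0.21. The list holds Fgf13 by its family name, and whether its product acts as a receptor ligand was not tested. Fgf13 is among the 2 that fell, at -0.44 (limma adjusted p = 0.019). Pdgfra and Pdgfrb, both receptors of platelet-derived growth factors, rose by 1.91 and 2.33, Fgfr2 by 1.38 and the ligand gene Pdgfb by 1.23. Pdgfa, another ligand gene of this family that was picked out after its values were seen, fell by 0.81, to 8.43 and 8.31 in NSCL61-sox11 against 9.15 and 9.21 in NSCL61 (limma adjusted p = 0.0028). Pdgfra stood at 9.97 and 10.18 in NSCL61-sox11, against 7.97 and 8.35 in NSCL61, without overlap. Pdgfrb is also one of the fibroblast markers above. With poly-A scaling Pdgfb did not pass (limma adjusted p = 0.07). With the tested probe sets of each gene averaged, Pdgfra, Pdgfrb, Fgfr2 and Pdgfb were at 1.38, 1.91, 1.52 and 0.88 and kept their calls. Fgfr1 stood at 10.94 in NSCL61-sox11 and 10.86 in NSCL61 and did not pass.

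Of 19 tested genes from the adaptors to ERK, 3 rose, 2 fell and 14 did not pass, with a median of 0.07. The Ras relative gene Rras rose by 0.58 and the adaptor gene Gab1 by 0.65, while the exchange factor gene Sos2 fell by 0.59 and Pea15a, which encodes a protein that holds ERK in the cytoplasm, fell by 0.28. None of these 4 calls held with every array left out: Rras, Sos2 and Pea15a lost theirs without either NSCL61 array, and Gab1 without NSCL61 array 1 or NSCL61-sox11 array 2. Rras also did not pass with poly-A or hybridisation control scaling, at 0.17 and 0.36. Gab1 did not pass with either of these scalings, at 0.25 and 0.43, nor with median centring, without the level filter, without the intensity trend or with array weights. A dimmer Gab1 probe set gave 1.35, and the mean of the tested Gab1 probe sets was 0.96 (limma adjusted p = 0.031). Pea15a did not pass with poly-A scaling (limma adjusted p = 0.093) or without the intensity trend (limma adjusted p = 0.081). Of 8 ERK effector kinases and ternary complex factors, 1 rose, 1 fell and 6 did not pass, with a median of 0.12. The kinase gene Rps6ka5 fell to 6.21 and 6.14 in NSCL61-sox11, against 8.06 and 8.13 in NSCL61, a difference of -1.92 (SE 0.10, limma adjusted p = 0.00015). Mknk2 rose by 0.52 and lost its call without NSCL61 array 1 (limma adjusted p = 0.10) and with poly-A or hybridisation control scaling, at 0.12 and 0.30, and its second probe set, at 0.17, did not pass. Srf, the factor that binds CArG boxes, stood at 8.53 in NSCL61-sox11 and 8.59 in NSCL61 and did not pass.

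Of 8 other dual-specificity MAP kinase phosphatases, 1 rose and 7 did not pass, with a median of 0.06. Dusp10, whose product acts on JNK and p38, rose to 7.89 and 7.83 in NSCL61-sox11, against 6.91 and 7.21 in NSCL61, by 0.80 (limma adjusted p = 0.0088). Without NSCL61 array 1 it was 0.65 (limma adjusted p = 0.054), and with poly-A scaling 0.40 (limma adjusted p = 0.32). Of 3 further tested genes, the Spred gene Spred3, the Sprouty gene Spry3 and Il17rd, 1 fell. This was Spred3, at 6.04 and 6.28 in NSCL61-sox11, against 6.95 and 7.27 in NSCL61, a difference of -0.95 (limma adjusted p = 0.0087) that became -0.79 and lost its call without NSCL61 array 2 (limma adjusted p = 0.052). Spry3 and Il17rd did not pass. Probe sets for Etv1 map to a second gene too and were not used.

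Of 18 other outputs and inhibitors of ERK signalling, 1 rose, 4 fell and 13 did not pass, with a median of -0.18. Errfi1, which encodes a feedback inhibitor of the EGF receptor, fell to 11.34 and 11.62 in NSCL61-sox11, against 12.33 and 12.13 in NSCL61. Its difference was -0.75 (limma adjusted p = 0.0076), and the call was lost without NSCL61 array 1 (limma adjusted p = 0.064). Lrig1, another receptor inhibitor, fell by 0.65, and the AP-1 gene Fosl1 fell by 0.53 (limma adjusted p = 0.0497). Lrig1 lost its call without NSCL61 array 2 (limma adjusted p = 0.086), and its dimmest probe set gave 0.23 and did not pass. Fosl1 lost its call without NSCL61 array 1 or 2 or NSCL61-sox11 array 2, and in 4 other alternatives. Epha4, an ephrin receptor, rose by 2.99 on its brightest probe set, from 5.35 and 5.64 in NSCL61. All 4 that were tested were called, but they do not add equal support. In NSCL61 a dimmer probe set had 3.46 and 3.12, and another 4.07 and 4.22, below the lowest mean tested, 5.15. These passed the level filter only through their NSCL61-sox11 values. Ccnd1 and Phlda1, also used as ERK readouts, stood at 11.91 and 10.97 in NSCL61-sox11 and 12.04 and 10.99 in NSCL61, and neither passed.

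Of 9 JNK and p38 kinase genes, 1 rose, 2 fell and 6 did not pass, with a median of 0.14. The neural JNK gene Mapk10 fell by 1.55, Mapk8 fell by 0.51 and the p38 gene Mapk12 rose by 0.78. Mapk8 lost its call without either NSCL61 array (limma adjusted p = 0.15 and 0.098) or NSCL61-sox11 array 2 (limma adjusted p = 0.052). Its other 3 tested probe sets did not pass, at -0.24, -0.20 and 0.022, and the mean of all 4 was -0.23 (limma adjusted p = 0.12). Mapk12 was 0.38 with poly-A scaling and did not pass. With its tested probe sets averaged Mapk12 was 0.37 and kept its call (limma adjusted p = 0.026). Across the lists, 19 genes are named as called besides Pdgfa, of which 8 kept their call with each array left out and 11 lost it at least once. None of the lists other than that of receptors had a median past 0.2 in either direction, whereas the 10 feedback genes had -0.51. This is a description, since the members were named with earlier results known.

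**Figure D4:**
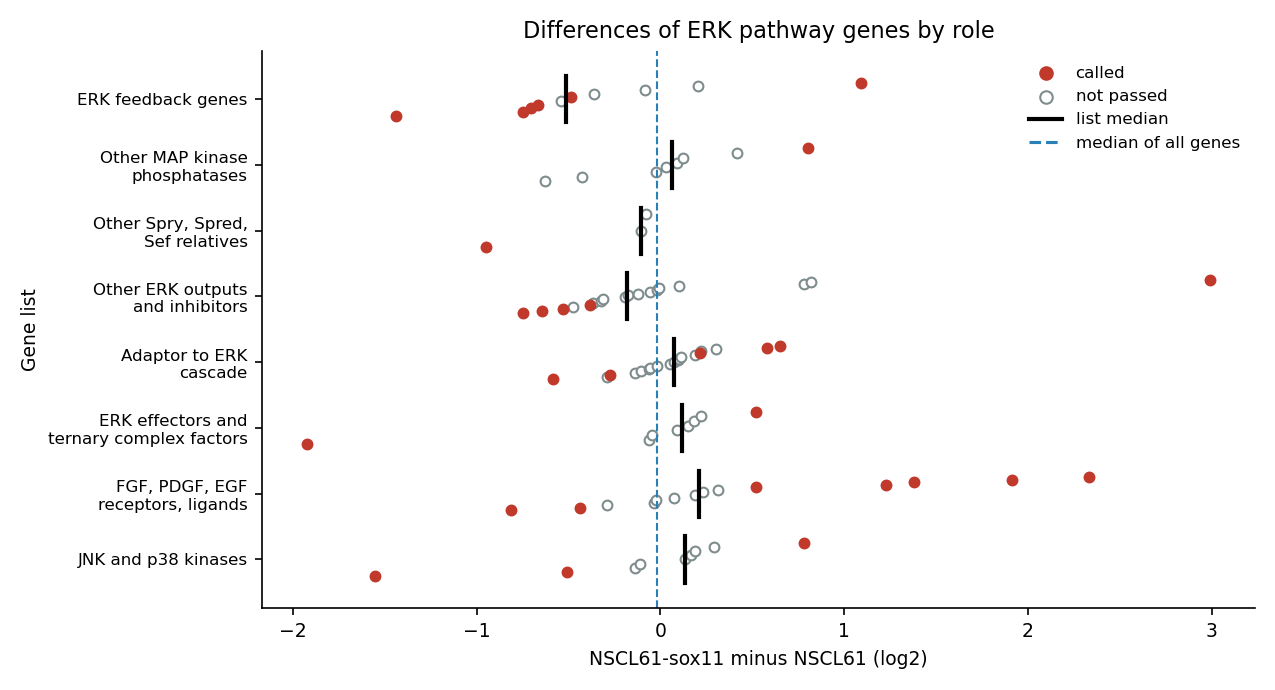
Difference between NSCL61-sox11 and NSCL61 (log2) of each tested gene by list, filled where called, with black bars at list medians and a dashed line at the median of all genes (-0.02). The feedback genes have their median at -0.51, and the receptors and ligands have theirs at 0.21 with 5 called genes to the right.

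Arrays of a line also differed in immediate early genes, which were looked at after their values were seen. Fos had 9.15 and 11.73 in NSCL61-sox11 and 9.95 and 11.89 in NSCL61. The lines overlapped, and the gap between arrays of a line was over 1.9 log2 units in both. Egr1 had 11.995 and 12.87 in NSCL61-sox11 and 11.16 and 12.08 in NSCL61. Within NSCL61-sox11, 9 of the 10 feedback genes were higher on array 2, by up to 0.44, and Etv4 was lower. Of all 13084 genes, 6112 were higher on that array. Within NSCL61, 7 of the 10 feedback genes were higher on array 2, as were 6607 of the 13084 genes. The mean deviation of the 10 genes from their own means was -0.31 and -0.06 on the NSCL61-sox11 arrays and 0.14 and 0.23 on the NSCL61 arrays. The NSCL61-sox11 arrays thus lay below the NSCL61 arrays on this mean, and the part of Fos and Egr1 in it was not tested.

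**Figure D5:**
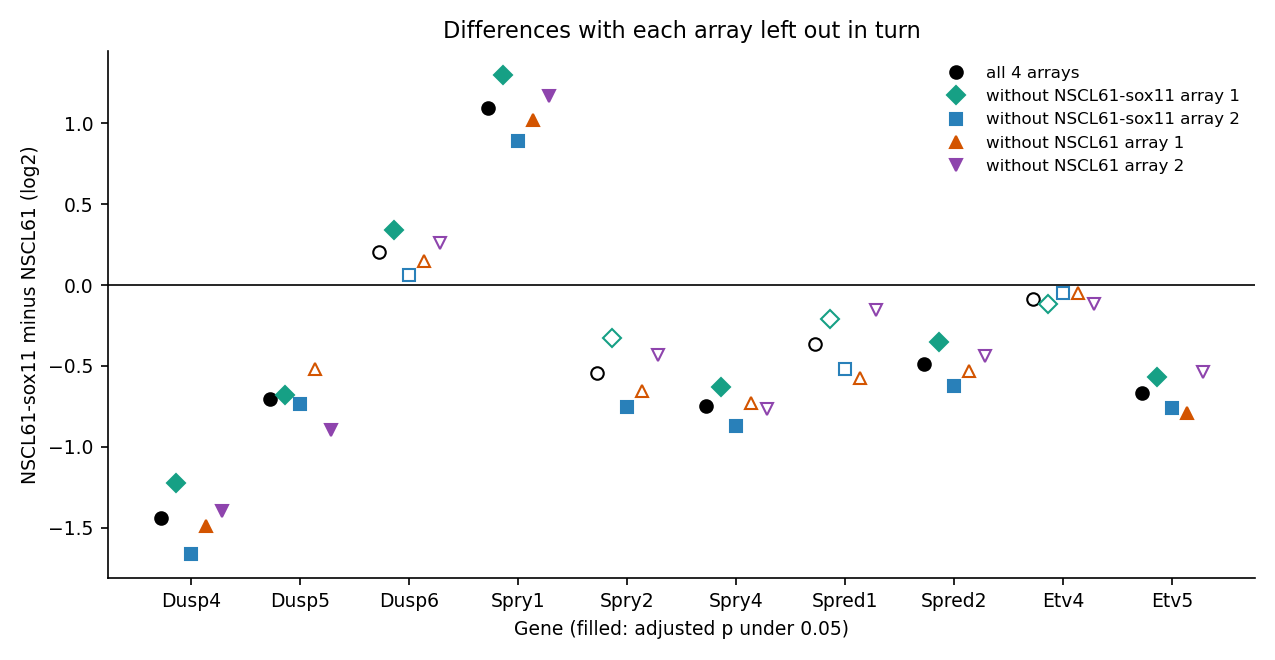
Difference between NSCL61-sox11 and NSCL61 (log2) of each of the 10 genes with all 4 arrays and with each array left out, filled where the adjusted p was under 0.05. Every value keeps its sign, Dusp4 and Spry1 stay filled throughout, and fewer genes are filled without an NSCL61 array (3) than with all arrays (6).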

How the data were processed

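RNA of 4 samples, 2 of NSCL61-sox11 and 2 of NSCL61, was labelled with biotin and hybridised to Affymetrix M430_2 arrays, 1 per sample, per the labels' protocols. Values per probe set are those the authors deposited, taken to be log2 because they span 2.13 to 14.62. Their log base, summary and normalization are not given in the sources used here, and no further scaling was applied. Gene symbols came from the platform annotation in GEO: 34945 have 1 symbol, 932 several and 9160 none here. The 64 control probe sets were left out.

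A two-sided limma fit (version 3.58.1, R 4.3.3, lmFit and eBayes with trend) covered the brightest 60% of probe sets, and p-values were adjusted over all of these by Benjamini-Hochberg. The design leaves 2 residual degrees of freedom, 6.36 after moderation. An exact permutation test of 2 arrays against 2 cannot go below p = 0.333, and precision is limited by the number of arrays. The procedure was tested on simulated data. Alternatives changed the level filter, scaling, variance model, choice of probe sets and replicate block, or left out an array. Figures were drawn with matplotlib 3.10.9.

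The members and lists were chosen with earlier results of these data known. Named genes were all members, Sox11, and up to 4 called genes of a list with the largest change. The 5 profiles nearest to the member that changed most were named too. Fgfr1, Pdgfa, Fgf13, Srf, Ccnd1, Phlda1, Spry3, Il17rd, Fos, Egr1 and the markers were added after their values were seen. The deleted gene is not reported here.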

Additional observations from a re-analysis of the deposited data

How the results depend on the processing

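Over 15 alternatives for each of the 10 genes, 131 of 150 values kept their direction and their side of the threshold, 8 lost their call, 8 gained one and 3 changed sign. The changes of sign were in genes that had not passed: Dusp6 became -0.20 with poly-A scaling and -0.015 with hybridisation control scaling, and Etv4 became 0.024 when its probe sets were averaged. These scalings shift every difference by -0.404 and -0.217. The median of the 10 genes then became -0.92 and -0.73, while that of all genes became -0.42 and -0.24. With poly-A scaling 0 of the 10 genes rose and 6 fell, by limma, where 303 of all 13084 genes rose and 1051 fell. Spry1, the 1 member that rose on the deposited scale, had a limma adjusted p of 0.13 there. With hybridisation control scaling 8 of the 10 genes were called, 1 upwards and 7 downwards. Of all 13084 genes 23.2% were called in that setting, 702 upwards and 2336 downwards. Of the 26 tested probe sets of the 10 genes, 20 were called.

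With each array left out in turn, 3 to 7 of the 10 genes were called, 1 to 2 upwards and 2 to 6 downwards, with 5 to 13 probe sets and 11 to 27 genes of the pathway lists, against 24 with all arrays. The share of all genes called was likewise lower without either NSCL61 array than without either NSCL61-sox11 array. These counts alone thus do not set the 10 genes or the lists apart from all genes. The median of the 10 genes was -0.68 to -0.34, against -0.028 to -0.0067 over all genes tested. Fewer arrays leave 1 residual degree of freedom, and a lone array is assumed to vary like the other line.

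The labels number the arrays 1 and 2 in each line. Same-numbered arrays deviated together (r = 0.415 across probe sets), and 7 of the 10 genes were higher on array 2 in both lines, against 29.5% of all genes, but nothing states that a number marks a shared culture or day. With the replicate number as a block, 9 of the 10 genes were called, 2 upwards (Spry1 and Dusp6) and 7 downwards, with 20 probe sets and 41 genes of the pathway lists, while 36.9% of all genes were called. The cause of these changes was not tested.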
